A study of Mus musculus with 50 samples.

Results

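The variants described here are private missense changes: single-base changes that alter an amino acid, were called in 1 of 44 IL6Myc mouse tumours, and were carried by at least 20% of that tumour's reads at the site. They were chosen from the deposited variant table by the annotation missense_variant, a count of 1 tumour, a single alternate allele and the 20% limit, with changes in Myc left out. Of 25624 variants with a single alternate allele, 2051 were missense, 1244 of these were private, and 404 private missense changes reached the limit. Leaving out 12 changes in Myc gave 392 members in 317 genes and 42 tumours. The annotation, the tumour count and the read share were therefore fixed by the choice and are given as descriptions.

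The tumours were mesenteric lymph nodes labelled as malignant plasma cells, each from a separate IL6Myc transgenic mouse, and their exomes were captured with a 50 Mb mouse exon kit and compared with mm10. Of 45 labelled tumours, 44 had values in the variant table. Tumour 1292 and the 5 kidneys of wild-type Balb/c mice were not analysed here. The labels give no age, treatment, transgene promoter or strain for the IL6Myc mice, all tumours form 1 group, and no RNA was measured, so the cell label could not be set against marker genes. A lymph node can hold cells other than tumour cells, and the table gives no read depth, so a read share has no interval here. A low share from a variant in part of the tumour cells, from admixed normal cells or from a change in copy number cannot be told apart in these data.

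Missense changes replace an amino acid of a protein, whereas synonymous changes leave the protein as it was. Inherited variants that persist in a mouse strain have passed through selection and hold many synonymous changes, while mutations acquired by a tumour largely have not. Most acquired missense changes are passengers with no effect on growth, and a few fall in genes that drive the tumour. In germinal-centre B cells the enzyme AID deaminates cytosines in antibody genes, and some other highly transcribed genes, linker histone genes and Pim1 among them, are known as its off-targets. Changes between purines or between pyrimidines are called transitions, and all others transversions.

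Tumours 1200 and 1293 are described apart, because private variants of all kinds lie in long dense runs on a few of their chromosomes. They held 117 and 52 members, 169 together in 120 genes. The other 42 tumours held 223 members in 204 genes. Whether the dense runs are inherited was not tested, as no normal DNA of the same mice was used here. A member is called clustered below when at least 2 other private single-base variants of its tumour lie within 1 Mb.

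The bases around a change are shown for 4 members that fall inside the promoter windows of RefSeq genes on GRCm38.p6. These 4 are chosen because the windows give the neighbouring bases that the deposited table lacks, on the plus strand from 5′ to 3′, with the altered base in capitals. The Krt10 change lies in the window of Krt10 itself. The others lie in windows of other genes, C730034F03Rik for BC090627/Chkb, Gm26885 for Pim1 and Rpn2 for Mroh8. They are therefore not shown as changes of their own promoters. Krt10 encodes a keratin of the upper epidermis, Chkb a choline kinase that overlaps the gene BC090627, Pim1 a serine and threonine kinase active in B cells, and Mroh8 a protein with HEAT repeats.
Krt10 (chr11:99389315-99389332, A to C): gctgtatAgaacagacat
BC090627/Chkb (chr15:89429475-89429495, G to T): ggacagcgagGaagcgcgccg
Pim1 (chr17:29491522-29491542, C to T): ggccattaagCacgtggagaa
Mroh8 (chr2:157279410-157279430, C to T): gaggctagtgCggaccacacg
The Krt10 change gave p.Leu4Arg in tumour 1505 at 58.33% of reads. The Pim1 change gave p.His68Tyr in tumour 1200 at 26.92%, and its altered cytosine is followed by an adenine. The Mroh8 change gave p.Arg19His in tumour 1611 at 20%, and its altered cytosine is followed by a guanine, so it lies in a CpG pair. The Chkb change, in tumour 1562 at 21.43%, has no written amino acid exchange. These 4 stretches are a sample set by where the windows lie, and nothing about the other members' neighbouring bases follows from them.

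The 42 tumours held few members each. The median was 3, the lowest 0 and the highest 25 (mean 5.31 ± 5.60, SD, n = 42). Tumours 1565 and 1602 had none. The most were found in tumour 1201 with 25, tumour 1587 with 21, tumour 1571 with 14, tumour 1199 with 13 and tumour 1626 with 12. The title numbers fall into 3 runs, which the labels do not call batches. In the run 1501 to 1592 the median was 4 and the range 0 to 21 (n = 18), and in the run 1601 to 1628 the median was 2 and the range 0 to 12 (n = 22). Of the 13 members of tumour 1199, 11 were clustered, and so were 14 of the 25 members of tumour 1201. None of the 21 members of tumour 1587 was clustered.

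**Figure D1:**
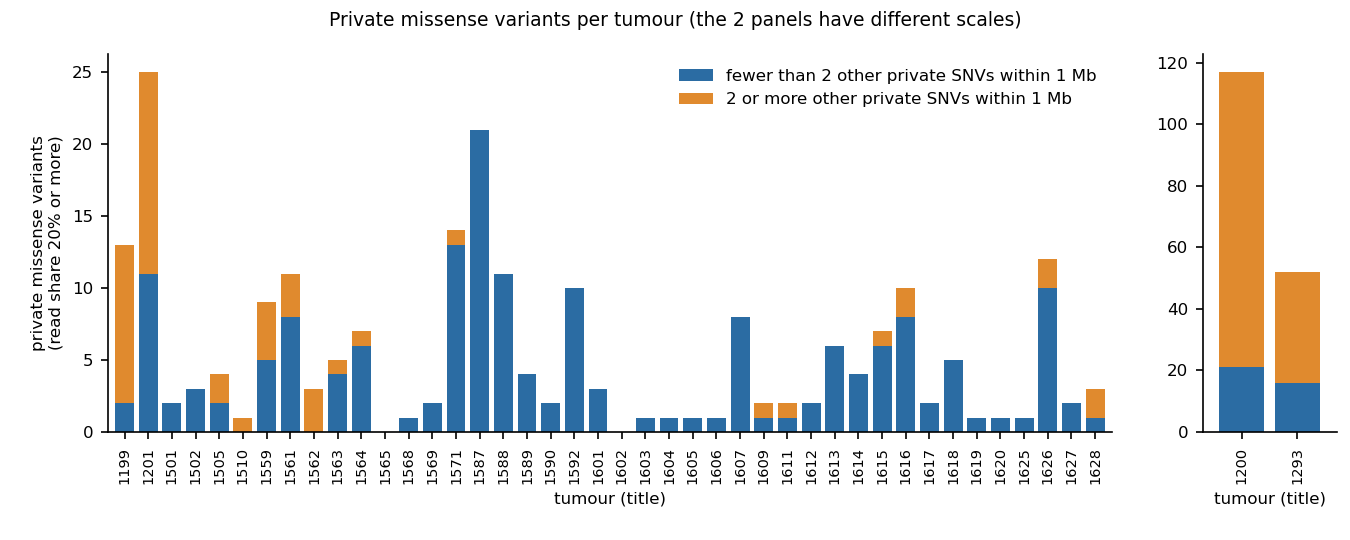
Members per tumour, with the tumour title on the horizontal axis and the number of members on the vertical axis, for the 42 tumours (left) and for tumours 1200 and 1293 (right, on another scale). Blue is members with fewer than 2 other private single-base variants within 1 Mb and orange is clustered members. Tumour 1587 has 21 members with none clustered, while 1200 and 1293 have 117 and 52, most of them clustered.

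Tumours with more members also had more private synonymous changes of at least 20%. Over the 42 tumours Pearson's r was 0.514 (permutation p = 0.00399, 100000 resamples) and Spearman's rho 0.610 (permutation p = 3.0e-05). Without tumours 1201 and 1587, the farthest from the median, r was 0.584 and rho 0.593 (n = 40). Within the title run 1601 to 1628 r was 0.612 (permutation p = 0.00217, n = 22), and within 1501 to 1592 it was 0.278 (permutation p = 0.226, n = 18). The relation therefore did not pass the test within 1501 to 1592. Both counts come from the same libraries and share their depth.

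In the 42 tumours the alternate read share of the members had a median of 38.95%, with quartiles of 26.5% and 48.6%. It was 20 to 30% for 77 members, 30 to 40% for 42, 40 to 60% for 90, and 60% or more for 14. The 5-point interval from 30 to 35% held 10 members, against 37 in the interval just under it and 32 in the interval just over it. In tumours 1200 and 1293 the median was 44.4% with quartiles of 40% and 48.8%, and 126 of 169 members lay between 40 and 60%. Clustered members of the 42 tumours had a median share of 42.6%, and members that were not clustered 37.2%. At the limit itself, 6 members lay at 20%, among them Clca4 p.Leu269Arg, Egr1 p.Met38Ile and Hcn4 p.Ala70Val. Just under it were the shared residue change p.Met21Leu of the eosinophil ribonuclease genes Ear2, Ear3 and Ear12 at 19.7%, Pdia3 p.Asn486Thr at 19.48% and Spink5 p.Phe33Cys at 19.44%. There were 28 members from 20% to under 22%, and 22 private missense changes from 18% to under 20%.

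**Figure D2:**
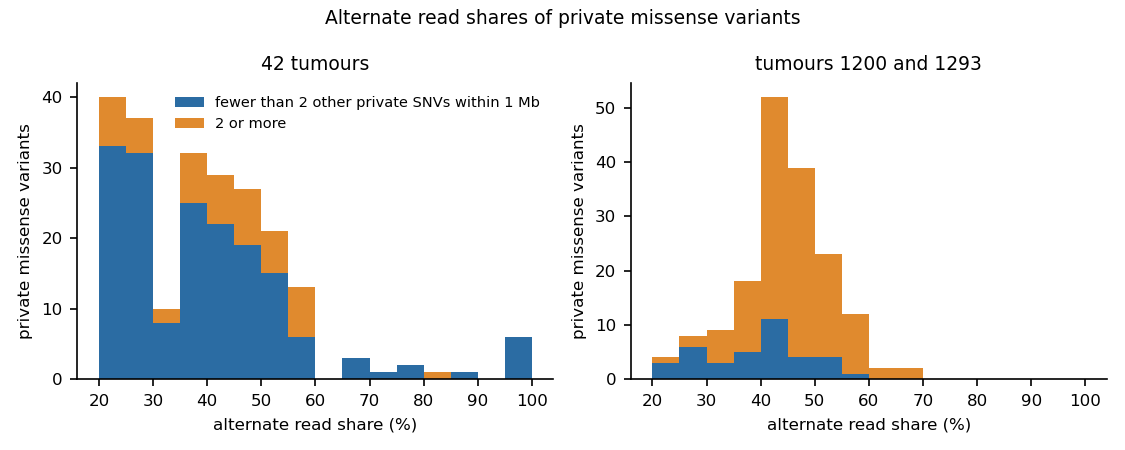
Histograms of the alternate read share, in percent in steps of 5 on the horizontal axis, against the number of members, for the 42 tumours (left) and for tumours 1200 and 1293 (right, on another scale), with clustered members stacked in orange on the others in blue. On the left the interval from 30 to 35% holds 10 members, and on the right 126 of 169 members lie between 40 and 60%.

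In the 42 tumours the 14 members with a share of 60% or more stood in 13 genes. Of the 6 at 100%, 2 were in Cmya5 and are given with the genes hit in several tumours. Zfp69, a zinc finger gene, had p.Ser101Pro at 100% in tumour 1561, and Ogfr, the opioid growth factor receptor, had p.Glu557Gly at 100% in tumour 1617. Pot1b, a telomere-binding protein, had p.Pro337Gln at 100% in tumour 1564. Rhox6, a homeobox gene on the X chromosome, had p.Cys193Ser at 100% in tumour 1627. Selplg, the selectin ligand PSGL-1 of leukocytes, had p.Asp183Glu at 88.37% in tumour 1199, and Setd1a, a histone H3 lysine 4 methyltransferase, had p.Gly450Ser at 78.57% in tumour 1619. A full share can come from few reads, and the depth behind these values is unknown.

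An exchange was written for 379 of the 392 members, and each of the 379 can be made from its codon by the base change given beside it. Of the 13 without an exchange, 10 stand only on non-coding transcripts. The 216 exchanges of the 42 tumours were of 92 kinds, so most kinds were seen few times. The most frequent was alanine to threonine with 8, then leucine to proline with 7. Leucine to valine, arginine to histidine, serine to asparagine, threonine to alanine and valine to alanine had 6 each. Leucine was lost most often, in 23 members, then serine in 21, alanine in 18 and arginine in 17. Valine was gained in 22, serine in 19, and proline and arginine in 18 each. Tryptophan was gained in 8 and lost in 2. Of the 17 arginine losses, 13 came from C-to-T or G-to-A changes of the coding strand, with 6 to histidine, 5 to tryptophan and 2 to glutamine.

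**Figure D3:**
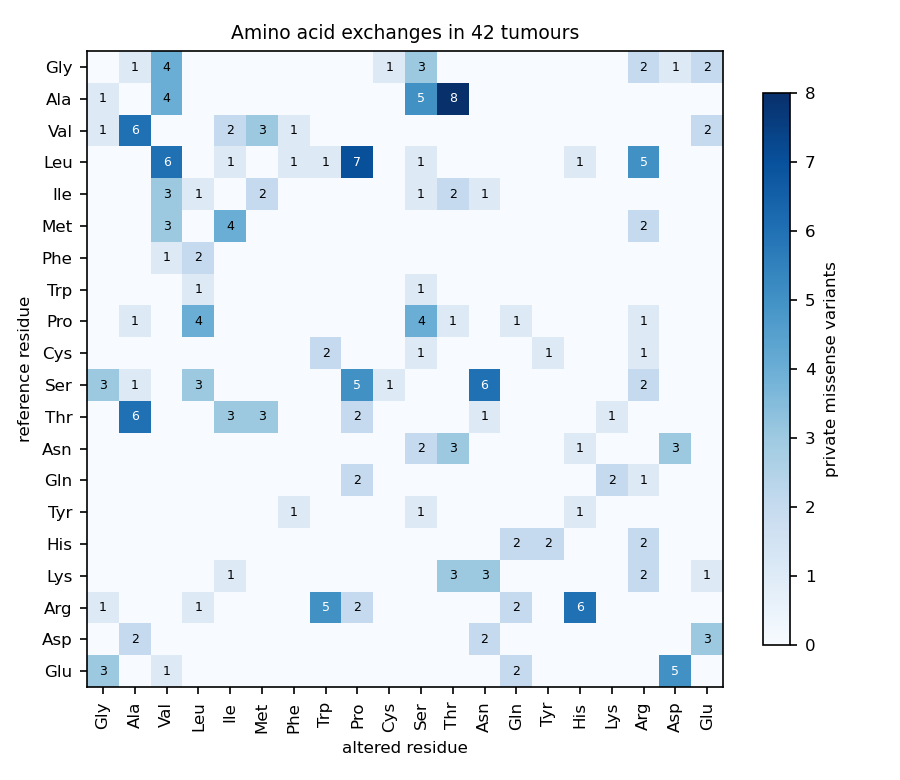
Amino acid exchanges of the 216 members of the 42 tumours that have one, with the residue lost on the vertical axis, the residue gained on the horizontal axis and colour for the number of members. Counts are spread over 92 kinds of exchange, and alanine to threonine has the most with 8.

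BLOSUM62, a score that is low for pairs of residues rarely exchanged between related proteins, was lower for members than for missense changes carried by several tumours. In the 16 tumours with at least 5 changes of each kind, members averaged -0.387 ± 0.516 and the changes carried by several tumours 0.0351 ± 0.0637 (SD over tumours). The mean difference was -0.42 (members minus shared, lower in 13 of 16 tumours, exact paired permutation p = 0.00562, two-sided). The shared changes repeat across tumours, so their spread between tumours is small by construction. The difference missed the threshold when tumours with at least 3 changes entered (-0.31, permutation p = 0.0897, n = 22), and within titles 1601 to 1628 (-0.27, exact permutation p = 0.375, n = 6). Against private missense changes under 20% the members scored 0.22 higher (SD of the differences 0.593). That difference did not pass the test (exact paired permutation p = 0.152, n = 16). Pooled over the 42 tumours, 97 of 216 members (44.9%) had a score below 0, against 36.5% of the shared missense changes. These pooled shared changes were counted once each at any read share, without the 20% limit. Proline was gained in 8.33% of members and in 4.65% of the shared changes. A change of charge occurred in 62 of 216 members (28.7%) of the 42 tumours and in 39.9% of the members of 1200 and 1293. It occurred in 31.8% of the shared changes and 35.2% of the private missense changes under 20%. Within the 42 tumours it was 27.1% in clustered members and 29.2% in the others. None of these charge differences was tested.

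Private coding changes differed from shared ones in the ratio of missense to synonymous changes, which the choice of members did not fix because it took no synonymous change. The 42 tumours held 223 members and 162 private synonymous changes of at least 20%, a ratio of 1.38. Variants carried by 2 or more tumours, counted once each at any read share, gave 804 missense and 1474 synonymous changes, a ratio of 0.545. Over the 23 tumours with at least 5 such changes, the missense part of coding changes was 57.2% ± 20 in private changes and 33.99% ± 1.70 in shared ones (SD). The difference of 23.2 points had a permutation p of 8.0e-05 (two-sided, higher in 18 of 23 tumours). The shared changes repeat across tumours, so their small spread is set by construction and the test compares private changes with nearly the same set each time. Within the 42 tumours, changes that were not clustered had 173 missense to 76 synonymous (2.28), and clustered ones 50 to 86 (0.581). The ratio of the clustered changes lay close to that of the shared variants, a comparison for which no test was run. Private changes under 20% gave 780 to 294 (2.65).

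The same division by clustering was seen in tumours 1200 and 1293. In 1200, clustered changes gave 96 missense to 176 synonymous (0.545), and the remainder 21 to 3 (7). In 1293 the clustered changes gave 36 to 73 (0.493) and the remainder 16 to 11 (1.45).

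By base change, the members of the 42 tumours comprised 71 C>T (31.8%), 57 T>C (25.6%), 33 T>G (14.8%), 26 C>A (11.7%), 24 C>G (10.8%) and 12 T>A (5.38%), each class counted with its complement. Transitions made up 57.4% (exact binomial 95% interval 50.6 to 64.0, for counting error only). They made up 71.0% of the members of 1200 and 1293 and 45.6% of the private missense changes under 20%. Within the 42 tumours transitions were 70.0% of clustered members and 53.8% of members that were not clustered. Tumours differed in their classes. T>G made up 8 of 21 members of tumour 1587, 6 of 10 of tumour 1592 and 4 of 12 of tumour 1626. Among these T>G changes were Prdm2 p.Lys871Thr at 48.72% and Maz p.Met28Arg at 42.86%.

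Set against private missense changes under 20% of the same tumours, none of the 6 classes passed the exact paired permutation test after Benjamini-Hochberg adjustment, and 1 had an unadjusted p under 0.05 (n = 16 tumours). That class was T>C, at 25.7% ± 12.1 in members and 16.4% ± 11.3 in the changes under 20% (SD). Its difference of 9.25 points had an exact permutation p of 0.0278 and an adjusted p of 0.167, and was positive in 12 of 16 tumours. T>C passed at a limit of 30%, at a limit of 10% and when clustered members were left out. The other adjusted p-values of the exact test lay between 0.259 for C>G and 0.811 for T>A. Against missense changes carried by several tumours, transitions were fewer in members, at 54.9% ± 15.5 against 67.4% ± 2.10 (SD, n = 16). That difference of -12.5 points was negative in 13 of 16 tumours (exact permutation p = 0.00644). The changes carried by several tumours repeat across tumours, so their spread is small by construction. The transition difference missed the threshold at a limit of 30% (-9.43 points, exact permutation p = 0.195, n = 9).

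**Figure D4:**
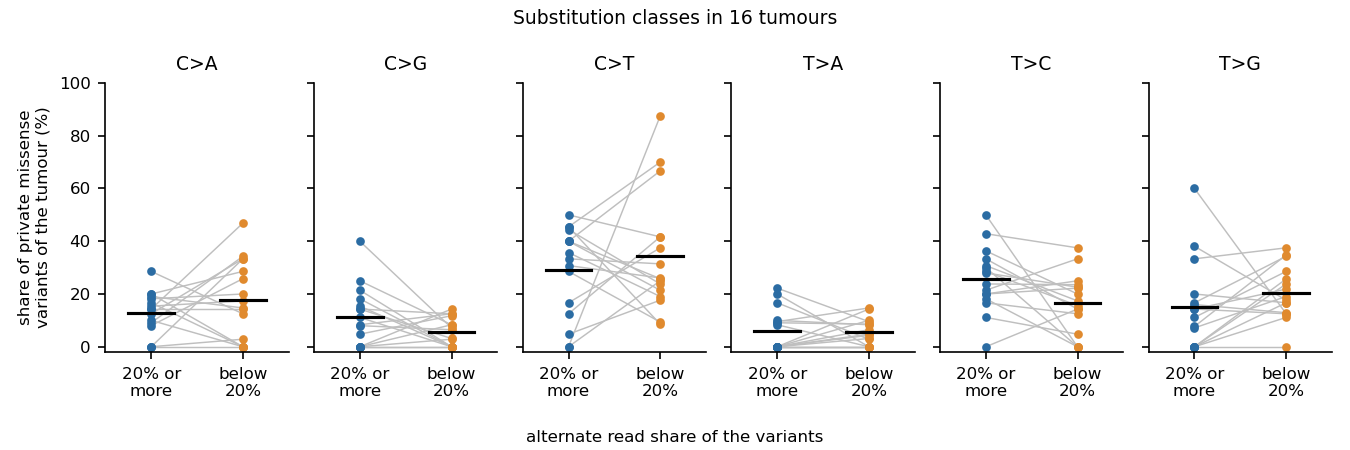
Share of each of 6 base change classes in a tumour, in percent, among members (20% or more, blue) and among private missense changes below 20% (orange), for the 16 tumours with at least 5 of each. Each point is a tumour, grey lines join the values of the same tumour, and black bars are means. T>C averages 25.7% in members and 16.4% in the changes below 20%, and the points of both kinds overlap in every class.

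Of 21900 protein-coding RefSeq genes, 1.42% held a member in any of the 44 tumours and 0.913% held one outside 1200 and 1293. Members were in 2 or more tumours for 11 of 317 genes, and in 1 tumour for the other 306. Without 1200 and 1293 the number was 4: Hist1h1d, Cmya5, Gm4788 and Heatr6. No residue was changed in more than 1 tumour, which the choice of members largely fixed. A base change called in several tumours was left out, so a residue could recur only through another base change of its codon. Private missense changes under 20% in a further tumour were present for 33 of the 317 genes, and missense changes carried by several tumours for 37.

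Hist1h1d, which encodes a linker histone that binds DNA between nucleosomes, was hit in 3 tumours, more than any other gene. Its members were p.Leu63Phe in tumour 1571 at 27.78%, p.Thr93Ile in tumour 1559 at 27.27%, and p.Ala180Thr with p.Ala181Gly in tumour 1626, both at 39.58%. The gene spans 776 bases, shorter than all but 1.76% of protein-coding genes. The linker histone gene Hist1h1e had p.Gly103Asp in tumour 1559 at 23.53% and p.Lys169Glu in tumour 1200 at 53.33%. Hist1h1c had p.Pro28Ser in tumour 1625 at 24.14%. Core histone members were Hist1h2ai p.Leu97Val in tumour 1571 at 27.03%, Hist1h2bc p.Val99Met in tumour 1587 at 42.11% and Hist1h2ak p.His83Leu in tumour 1293 at 47.58%. Histone genes held 8 members in 5 of 89 genes (5.62%) and 5 tumours outside 1200 and 1293, against 0.913% of all protein-coding genes. This difference was not tested, and the family was chosen with earlier results of these data known. Some of the 8 lie in the same tumour, so they are not separate hits. All 8 were changes of a C:G pair, 6 C>T and 2 C>G, and the 2 histone members of 1200 and 1293 were T>C and T>A. Among all members of the 42 tumours, C>T made up 31.8%, C>A 11.7% and C>G 10.8%. Histone genes also held 11 private missense changes under 20%, 9 of them at a C:G pair, and no missense change carried by several tumours. Histone genes have close copies, so reads can be placed on the wrong copy, and this was not tested.

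The other genes hit in several tumours outside 1200 and 1293 were Cmya5, Gm4788 and Heatr6. Cmya5, a large muscle protein, had p.Leu578Pro in tumour 1588 and p.Gly563Glu in tumour 1609, both at 100% of reads, 45 bases apart. Gm4788, a predicted gene, had p.Ile507Thr (49.09%) and p.Lys472Asn (46.3%) in tumour 1562, and p.Gly744Ser (32.84%) and p.Ile742Val (35.29%) in tumour 1628. Heatr6, a protein with HEAT repeats, had p.Ser223Leu in tumour 1199 at 50.0% and p.Val397Ile in tumour 1201 at 27.27%. Gm4788 also carried 5 missense changes found in several tumours, Cmya5 2 and Heatr6 1.

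For the remaining 7 genes at least 1 of the tumours was 1200 or 1293. Abcc3, an export transporter, had p.Lys1262Glu in tumour 1199 at 48.24% and p.Ile365Met in tumour 1200 at 40.82%. Rab11fip1, which acts in endosome recycling, had p.Met411Val in tumour 1199 at 58.0% and p.Val941Ala in tumour 1200 at 51.72%. Rmdn3, a mitochondrial outer membrane protein that contacts the endoplasmic reticulum, had p.Ala224Ser in tumour 1200 at 43.59% and p.Gly331Val in tumour 1587 at 29.41%. Csmd3, a very long gene, had p.His139Pro in tumour 1200 at 23.53% and p.Gln3497Pro in tumour 1587 at 39.68%. Huwe1, a ubiquitin ligase on the X chromosome with Myc proteins among its known substrates, had p.Arg3782His in tumour 1293 at 43.24% and p.Thr1663Ala in tumour 1561 at 43.86%. Snapc4, a subunit of the complex that activates small nuclear RNA genes, had changes at 42.47% in tumour 1200 and 21.51% in tumour 1615, with no written exchange. Hist1h1e, given above, completes the 7.

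Outside 1200 and 1293, 8 pairs of gene and tumour held 2 or more members. Of these, 7 held 2 members each, within 8 bases in 6 pairs, and the other held more members at a wider spacing. Spire2, an actin nucleator, had p.Pro94Thr and p.Pro94Arg in tumour 1201 at neighbouring bases of the same codon, both at 57.5%. Bpifb2 had p.Gly152Ser and p.Ile154Asn in tumour 1616, 7 bases apart and both at 40%. Sfr1, a homologous recombination factor, had p.Val58Ala and p.Thr61Pro in tumour 1592, 8 bases apart and both at 25%. Nono, an RNA-binding protein of paraspeckles, had p.His27Gln at 27.78% and p.His28Gln at 28.95% in tumour 1614. For changes in the same codon the written exchanges treat each base alone, so the protein made when both lie on 1 copy can differ from either.

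Genes of cancer, B cell and Myc biology held 18 members in 15 of 263 listed genes (5.70%) outside 1200 and 1293, against 0.913% of all protein-coding genes. The lists were drawn up with earlier results of these data known, so the difference is not evidence about the lists. No listed gene of the NF-kB pathway (26 genes), of B cell and plasma cell identity (22) or of cell cycle and apoptosis (28) held a member. In these 42 tumours neither did the Myc network (15), where changes in Myc itself were left out by the choice. Lists this short can hold none at the 0.913% of all protein-coding genes, so these zeros are not results about the lists. No member lay in antibody genes. The same held for private missense changes under the share limit and for missense changes carried by several tumours. Only 2 antibody genes were counted as protein-coding in RefSeq. With no missense annotation there of any kind, this absence says nothing about whether these tumours carry changes in antibody genes.

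In the IL6, JAK and STAT list, Stat3, the transcription factor that carries the IL6 signal, had p.Lys658Arg in tumour 1618 at 30.37%, the only member among 16 genes. Of 29 genes of p53 and DNA damage, 3 held a member. Trp53, the tumour suppressor p53, had p.Tyr123Ser in tumour 1201 at 45.28%. Msh6, a mismatch repair protein, had p.Phe1287Leu in the same tumour at 40.58%, and Fancm, a DNA helicase of the Fanconi pathway, had p.Leu1894Pro in tumour 1589 at 37%. Egr1, an early growth response factor downstream of MAPK signalling, had p.Met38Ile in tumour 1613 at the limit of 20%. Arid1b, a subunit of the SWI/SNF chromatin remodeller, had p.Asn777Asp in tumour 1607 at 49.09%.

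Protein quality control held 4 members in 4 of 25 listed genes and 4 tumours, with that of Huwe1 given above. Eif2ak3, the endoplasmic reticulum stress kinase PERK, had p.Ala56Thr in tumour 1563 at 45.0%. Syvn1, the ubiquitin ligase of protein disposal from the endoplasmic reticulum, had p.Ala44Thr in tumour 1559 at 20.51%. In the NOTCH, WNT and adhesion list, Fat2, an atypical cadherin, had p.Thr1847Met in tumour 1201 at 73.03%, and Lrp1b, a giant lipoprotein receptor, had p.Leu3222Trp in tumour 1615 at 28%.

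**Figure D5:**
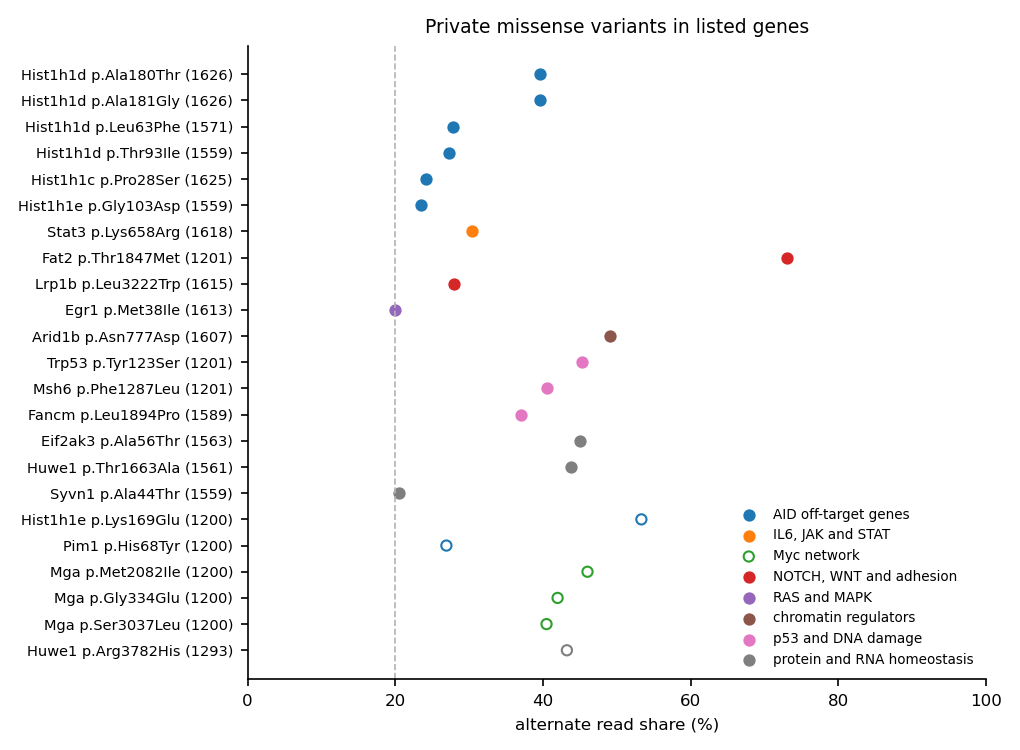
Members in listed genes other than the very long ones and 1 not reported here, one row for each member with its tumour in brackets, with the alternate read share in percent on the horizontal axis, colour for the list and a dashed line at 20%. Filled points are members of the 42 tumours and open points those of 1200 and 1293. Fat2 has the highest share at 73.03% and Egr1 the lowest at 20%.

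Very long genes, listed because length alone raises the chance of a hit, held 17 members in 10 of 42 genes (23.8%) and 8 tumours outside 1200 and 1293. Of all protein-coding genes 0.913% held one, and the difference was not tested. Several of the 17 share a gene and a tumour, so they are not separate hits. Among them were members in axonemal dyneins (Dnah2 p.Ala2643Val, 66.07%, tumour 1201, and Dnah17 p.Glu3006Asp, 41.86%, tumour 1588), in the giant muscle proteins Ttn (p.Pro9613Ser, 45.35%, tumour 1502) and Xirp2 (p.Cys2500Tyr, 38.89%, tumour 1588), and in Csmd3, Csmd1, Macf1, Pclo and Ryr3. Over the 200 member genes matched in RefSeq the median span was 26964.5 bases, against 17146 bases over all protein-coding genes.

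Tumour 1201 carried Trp53, Msh6, Fat2 and Dnah2 members together. Its 6 members on chromosome 11 had unequal shares, with Fat2 at 73.03%, Dnah2 at 66.07%, Trp53 at 45.28%, Nefh at 38.05%, Heatr6 at 27.27% and Adcy1 at 26.19%. Trp53 is among 8 member genes of the 42 tumours that have a named pseudogene in RefSeq, 3.92% of member genes against 1.56% of protein-coding genes. The others include the ribosomal proteins Rplp0 (p.Leu15Val, 47.22%), Rplp1 (p.Ile60Met, 29.41%) and Rps10 (p.Ile9Val, 41.98%), the mitochondrial chaperone Hspa9 (p.Met561Arg, 32.88%) and the glycolytic enzyme Pgam1 (p.Leu8Val, 29.41%). Reads of a pseudogene can be placed on its parent gene, and their part in these calls was not tested.

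Gene families were taken by the prefix of the gene symbol written with the variant, so members under other symbols are not counted. Outside 1200 and 1293, olfactory receptors held 7 members in 7 of 1110 genes (0.631%), with shares of 20.83 to 40.72%. Zinc finger symbols held 2 members in 2 of 468 genes, axonemal dyneins 3 in 3 of 15, and predicted genes 12 in 9 of 1750. A530054K11Rik p.Gly573Ala in tumour 1201 at 27.91%, named Zfp729a in RefSeq, is not among the 2. Zinc finger proteins with other symbols are not counted either. In the 42 tumours no member had a solute carrier symbol, against 389 such genes, or a kinesin or myosin symbol, against 81. Dirc2 p.Ala26Thr in tumour 1571 at 46.15%, named Slc49a4 in RefSeq, was missed by the prefix. The 2 zeros are therefore zeros of symbols and not of the protein families. The differences of these families from the 0.913% of all protein-coding genes were not tested.

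In tumour 1200 the dense runs carried most members. A run on chromosome 2 from 19269183 to 26589371 held 31 members in 19 genes among 369 private single-base variants, and a run on the same chromosome from 118615023 to 122326535 held 50 members in 26 genes among 464. Casc5, a kinetochore scaffold, had 9 members in the second run, Zfp106 and Ganc, an alpha-glucosidase, 5 each, and Etl4 had 4 in the first. Casc5 shares ran from p.Asn227Asp at 42.68% to p.Asn168Lys at 59.65%, all near the middle of the scale. Mga, a partner of Max that opposes Myc at its target genes, had p.Gly334Glu at 41.98%, p.Met2082Ile at 46.03% and p.Ser3037Leu at 40.48%. All 3 Mga changes stood in the second run with 345 or more other private variants within 1 Mb. In tumour 1293 a run on chromosome 1 from 63623085 to 75498183 held 35 members in 23 genes among 428 private single-base variants. Zfp142 had 4 members there, 3 of them at 46.67% in neighbouring codons, and Dytn and Kansl1l had 3 each.

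Smaller runs were present in tumours 1199 and 1201. In tumour 1199, 3 members lay on chromosome 11 between 82988288 and 86238281, Heatr6 among them, and 6 between 94355021 and 96911952, Abcc3 and Snx11 among them. A run in tumour 1201 held 9 members. Tumour 1200 had 5 clustered members on chromosome 11 between 83121385 and 96353282. Of these, 4 lay between 94368519 and 96353282, inside the second of the 1199 runs. Private variants of different tumours cannot share a position, by the choice of members. Pim1 p.His68Tyr, the Csmd3 change of 1200 and Huwe1 p.Arg3782His of 1293 were not clustered.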

How the data were processed

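Exomes of mouse tumours were captured, per the labels, and variants were called with GATK on mm10, per the submitters' processing notes. Aligner, filters and the part of the kidneys in calling are not stated there. The deposited table gives, per tumour and variant, a percent value read here from its range as the share of reads with the alternate base, and a dot where none was called. Depth is unknown, and each tumour came from its own mouse with no repeat library used here. From 25823 rows, 199 with several alleles were left out. No column of another sample was present.

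Members, gene lists and families were chosen with earlier results of these data known. Classes were pooled by complement. Clustering used 2 other private variants within 1 Mb. Comparisons were paired within tumours with at least 5 changes of each kind, without 1200 and 1293, by two-sided sign-flip permutation, exact for 16 tumours or fewer (fewer arrangements than 100000) and otherwise with 100000 resamples, with a threshold of 0.05 and Benjamini-Hochberg adjustment over the 6 classes. Tests were first run on simulated data. Python 3.11.15, numpy 2.4.6, scipy 1.17.1, pandas 2.3.3 and Biopython 1.88 were used. Of 317 genes, 312 matched RefSeq (GRCm38.p6), whose gene spans stand in for protein lengths.

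Named genes were those in 2 or more tumours, listed genes outside 1200 and 1293 up to 20 members by share, listed members of 1200 and 1293, the values at the limit, and gene and tumour pairs with several members. Stat3, Fancm, Xirp2, Macf1, Lrp1b, Ryr3, Pclo, Csmd1, Hist1h1c, Syvn1, the core histone, high-share, T>G and pseudogene examples and the genes of the dense runs fall outside this rule and were named after their values were seen. So were Dirc2 and A530054K11Rik, as examples of members that the family prefixes missed. Alternatives were a share limit of 10 or 30%, fewer changes per tumour, 1200 and 1293 included or 1199 and 1201 left out, clustered members left out, antibody genes left out, and each title run alone. Some genes that entered the counts are not reported here by name.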

Additional observations from a re-analysis of the deposited data

How the results depend on the processing

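Of 125 values under other settings, the 15 with antibody genes left out were identical because no member lies there, and say nothing about stability. The median number of members per tumour was 3, and 2 at a limit of 30%, 8 at 10% and 2 without clustered members. Of the other 105 values, 81 kept their direction and side of the threshold, or for counts stayed within 1.5 times. The number of base change classes past the threshold, 0 as reported, was 1 at a limit of 30%, at 10% and without clustered members. That class was T>C each time, at 14.6 points (adjusted exact permutation p = 0.0469, n = 9), 10.1 points (adjusted permutation p = 0.0192, n = 34) and 13.2 points (adjusted permutation p = 0.0425, n = 14). T>A turned negative at 30% (-2.02 points), with 1200 and 1293 included (-0.184), without clustered members (-0.119) and in titles 1501 to 1592 (-3.02), T>G turned positive without clustered members (0.726), and in titles 1601 to 1628 C>A turned positive (4.84) and C>G negative (-1.39). None of these turned classes had passed. The transition difference to shared missense changes missed the threshold at 30% (-9.43 points), in titles 1501 to 1592 (-15.3) and in 1601 to 1628 (-12.0). The BLOSUM62 difference to shared changes missed it with at least 3 changes per tumour (-0.311) and in 1601 to 1628 (-0.273). The correlation with synonymous changes missed it in titles 1501 to 1592 (r = 0.278), a division chosen after seeing the data. Genes in 2 or more tumours numbered 11, and 5 at 30%, 29 at 10%, 3 without clustered members and 4 without 1200 and 1293, the last chosen after seeing the data. Listed genes with members numbered 15, and 23 at 10%. The cause of these changes was not tested, beyond the fewer members or tumours that some settings leave. The title run 1199 to 1293 holds 2 tumours without 1200 and 1293 and gave no test. No paired analysis was possible because all tumours form 1 group and replicate numbers follow accession order, so tests were paired within tumours instead.

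The depth at each site is unknown, so shares near the limit, full shares and missing calls cannot be weighed by their reads. Normal DNA of the same mice was not used, so acquired and inherited changes cannot be told apart.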
